A study of Mus musculus with 9 samples.

Results

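The genes described here are 7 chemokines, the secreted proteins that attract leukocytes, and 1 chemokine receptor: Ccl2, Ccl7, Ccl8, Ccl11, Ccl6, Ccl9, Cxcl12 and Ccr2. Their members were all probe sets that the platform annotation assigns to these genes alone, 10 of the 12422 probe sets on the array that are not controls, for 8 of 8251 genes. Every gene had at least 1 probe set, and Cxcl12 had 3. The annotated genes have the Entrez identifiers 20296 (Ccl2), 20306 (Ccl7), 20307 (Ccl8), 20292 (Ccl11), 20305 (Ccl6), 20308 (Ccl9), 20315 (Cxcl12) and 12772 (Ccr2). Of the 10 probe sets, 8 passed the filter on dim signals, and those of Ccl2 and Ccl7 did not.

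Chemokines are displayed on the surface of blood vessels and in the matrix, where they direct cells that carry the matching receptor. Ccl2 and Ccl7 are ligands of Ccr2, the receptor that lets inflammatory monocytes leave the bone marrow and enter damaged tissue, and Ccl8 and Ccl11 belong to the same family of close relatives. In dystrophic muscle, repeated fibre damage is accompanied by infiltrating macrophages, which descend in part from monocytes that carry Ccr2.

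Transcript levels were measured in 9 mice, in a muscle of the calf, the gastrocnemius, with 1 Affymetrix U74Av2 array per mouse. The mdx mice carry a mutation in the mouse Dmd gene and lack full-length dystrophin, the protein that ties the fibre's cytoskeleton to its membrane. The hDMD mice carry the human dystrophin gene at full length, and the utrn-/- mice lack utrophin, a related protein. Levels could thus be set against loss of the mouse protein and against the human gene on dystrophin-deficient backgrounds.

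The wild-type mice, of a mixed C57Bl/DBA2/129OLA-Ev background, were both 7 weeks old (n = 2, wild-type 1 female and wild-type 2 male). All others were male. The hDMD mouse was 11 weeks old (n = 1), mdx 1 and mdx 2 were 15 and 13 weeks old, and hDMD mdx 1 and hDMD mdx 2 were 24 and 10 weeks old. The mdx utrn-/- mouse was 5 weeks old (n = 1) and the hDMD mdx utrn-/- mouse 9 weeks old (n = 1). The 3 mdx and mdx utrn-/- mice are called dystrophin-lacking below, and the 6 others, with mouse or human dystrophin, dystrophin-carrying. Only wild-type and hDMD mice have an intact mouse Dmd gene. The strain background is labelled for wild-type mice only. Both mdx mice were older than both wild-type mice, so age and genotype cannot be told apart in that comparison, and 3 of the 6 genotypes rest on a single mouse.

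Ccl6 and Ccl9 lie next to each other on chromosome 11, and their levels had a Pearson correlation of 0.784 over the 9 mice. Other pairs of members had higher values, such as Ccl6 with Ccr2 at 0.838. The stretch shared by the Ccl6 and Ccl9 promoters is shown first, and any part of it in the levels was not tested. Of the 8 genes, 5 had a promoter in the RefSeq table (GRCm38.p6, from 250 bases before to 50 after the annotated start): Ccl8, Ccl6, Ccl9, Cxcl12 and Ccr2. The best local alignment of the Ccl6 and Ccl9 promoters had 58 identical bases among 67 aligned pairs, with 7 gap bases. The Ccl6 stretch lies at chr11:83593073-83593146 on the minus strand and runs from 59 bases before the start to base 15 of the transcript. The Ccl9 stretch lies at chr11:83578588-83578654 on the minus strand and runs from 18 bases before the start to base 49. Capitals mark the 4 runs of 6 or more bases found in both genes, the longest of 13 bases.
Ccl6: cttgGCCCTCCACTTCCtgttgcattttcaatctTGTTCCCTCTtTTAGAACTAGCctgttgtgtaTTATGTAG
Ccl9: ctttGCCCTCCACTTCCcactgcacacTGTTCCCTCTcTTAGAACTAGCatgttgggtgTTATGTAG
The longest shared run lies before the annotated start in both genes. It holds ACTTCC, which is GGAAGT, a core of ETS factor sites, on the opposite strand. GGAAGT was found on either strand in 23.8% of 32851 promoters of this length, and in 2 of these 5.

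The Ccl8 promoter is shown whole because Ccl8 had the largest difference between mdx and wild-type mice among the 10 probe sets. It lies at chr11:82114935-82115234 on the plus strand, and capitals mark TATAAA, the letters of a TATA box, which begin 32 bases before the start.
Ccl8: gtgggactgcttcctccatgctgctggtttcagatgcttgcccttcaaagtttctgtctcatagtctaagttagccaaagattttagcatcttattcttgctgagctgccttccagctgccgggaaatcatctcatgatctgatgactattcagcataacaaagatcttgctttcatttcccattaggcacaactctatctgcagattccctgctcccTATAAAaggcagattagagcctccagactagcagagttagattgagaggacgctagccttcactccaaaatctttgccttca
TATAAA occurred on either strand in 13.6% of all promoters and in those of Ccl8 and Ccl9. In Ccl9 it lay 92 bases before the start, overlapped by its own reverse complement, with a further match on the opposite strand 224 bases before. TTCNNNGAA, a STAT motif, and GGANTTTCC, an NF-kB motif, were found in 8.3% and 1.25% of all promoters and in 0 of these 5. In gene order, Ccl2, Ccl7, Ccl11, Ccl12, Ccl8 and Ccl1 follow one another on chromosome 11, and Ccl5, Ccl9, Ccl6 and Ccl3 form another row there. Ccr2 lies on chromosome 9, and Cxcl12 stands on chromosome 6 with no chemokine beside it.

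All levels are log2 of the quantile normalised intensity plus 16, which puts the floor of the scale at 4. A difference of 1 is a factor of 2 in intensity plus 16, so differences of dim genes are understated. Levels are compared within a probe set only, since probe sets differ in how strongly they bind. Of the deposited intensities, 19.4% to 29.9% per array were at or below 0. Hybridisation spike-in controls split the arrays into 3 bright ones, wild-type 1, hDMD mdx 1 and mdx 2, and 6 dim ones, with median spike-in intensities 6.18 times apart. The brightness is therefore balanced over wild-type, mdx and hDMD mdx, which have 1 bright and 1 dim array each, and the other 3 genotypes have dim arrays only. The 3'/5' signal ratio of actin was 1.2 to 1.87 in bright and 0.669 to 0.908 in dim arrays. Genotype labels could not be checked from Dmd, at 4 to 4.95 over the 9 arrays, or from Utrn, at 4.15 to 6.16 on 2 probe sets. Acta1, skeletal actin, was among the brightest probe sets in all 9 arrays, at 11.73 to 11.89, as a check that the tissue is muscle. Quantile normalisation gives the brightest probe sets nearly equal values in every array, so this narrow range does not measure muscle content. Mb had the widest range of the muscle genes examined, from 9.09 to 10.25. It read 9.09 to 9.40 in the dystrophin-lacking and 9.67 to 10.25 in the dystrophin-carrying mice. That difference between the classes was -0.70 ± 0.21 (SE), adjusted p = 0.547 (limma). Wild-type 2 stood apart from the other dystrophin-carrying mice in summed macrophage markers, at 1970 against 426 to 608. The class differences of Ccl8, Ccl6 and Ccl9 are also given without it.

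At the floor were Ccl2 in 4 arrays, both wild-type and both hDMD mdx mice, and Ccl7 in the hDMD mouse. After normalisation, no array of the other 8 probe sets was at the floor. Ccl8 came close to it, at 4.02 in wild-type 1. So did Ccr2, at 4.04 in hDMD mdx 2 and 4.05 in the hDMD mdx utrn-/- mouse. The deposited Ccr2 values of these 2 mice were below 0, at -0.41 and -0.461, and lie above the floor only through normalisation. The same held for Ccl7 in hDMD mdx 2, deposited at -0.545.

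**Figure D1:**
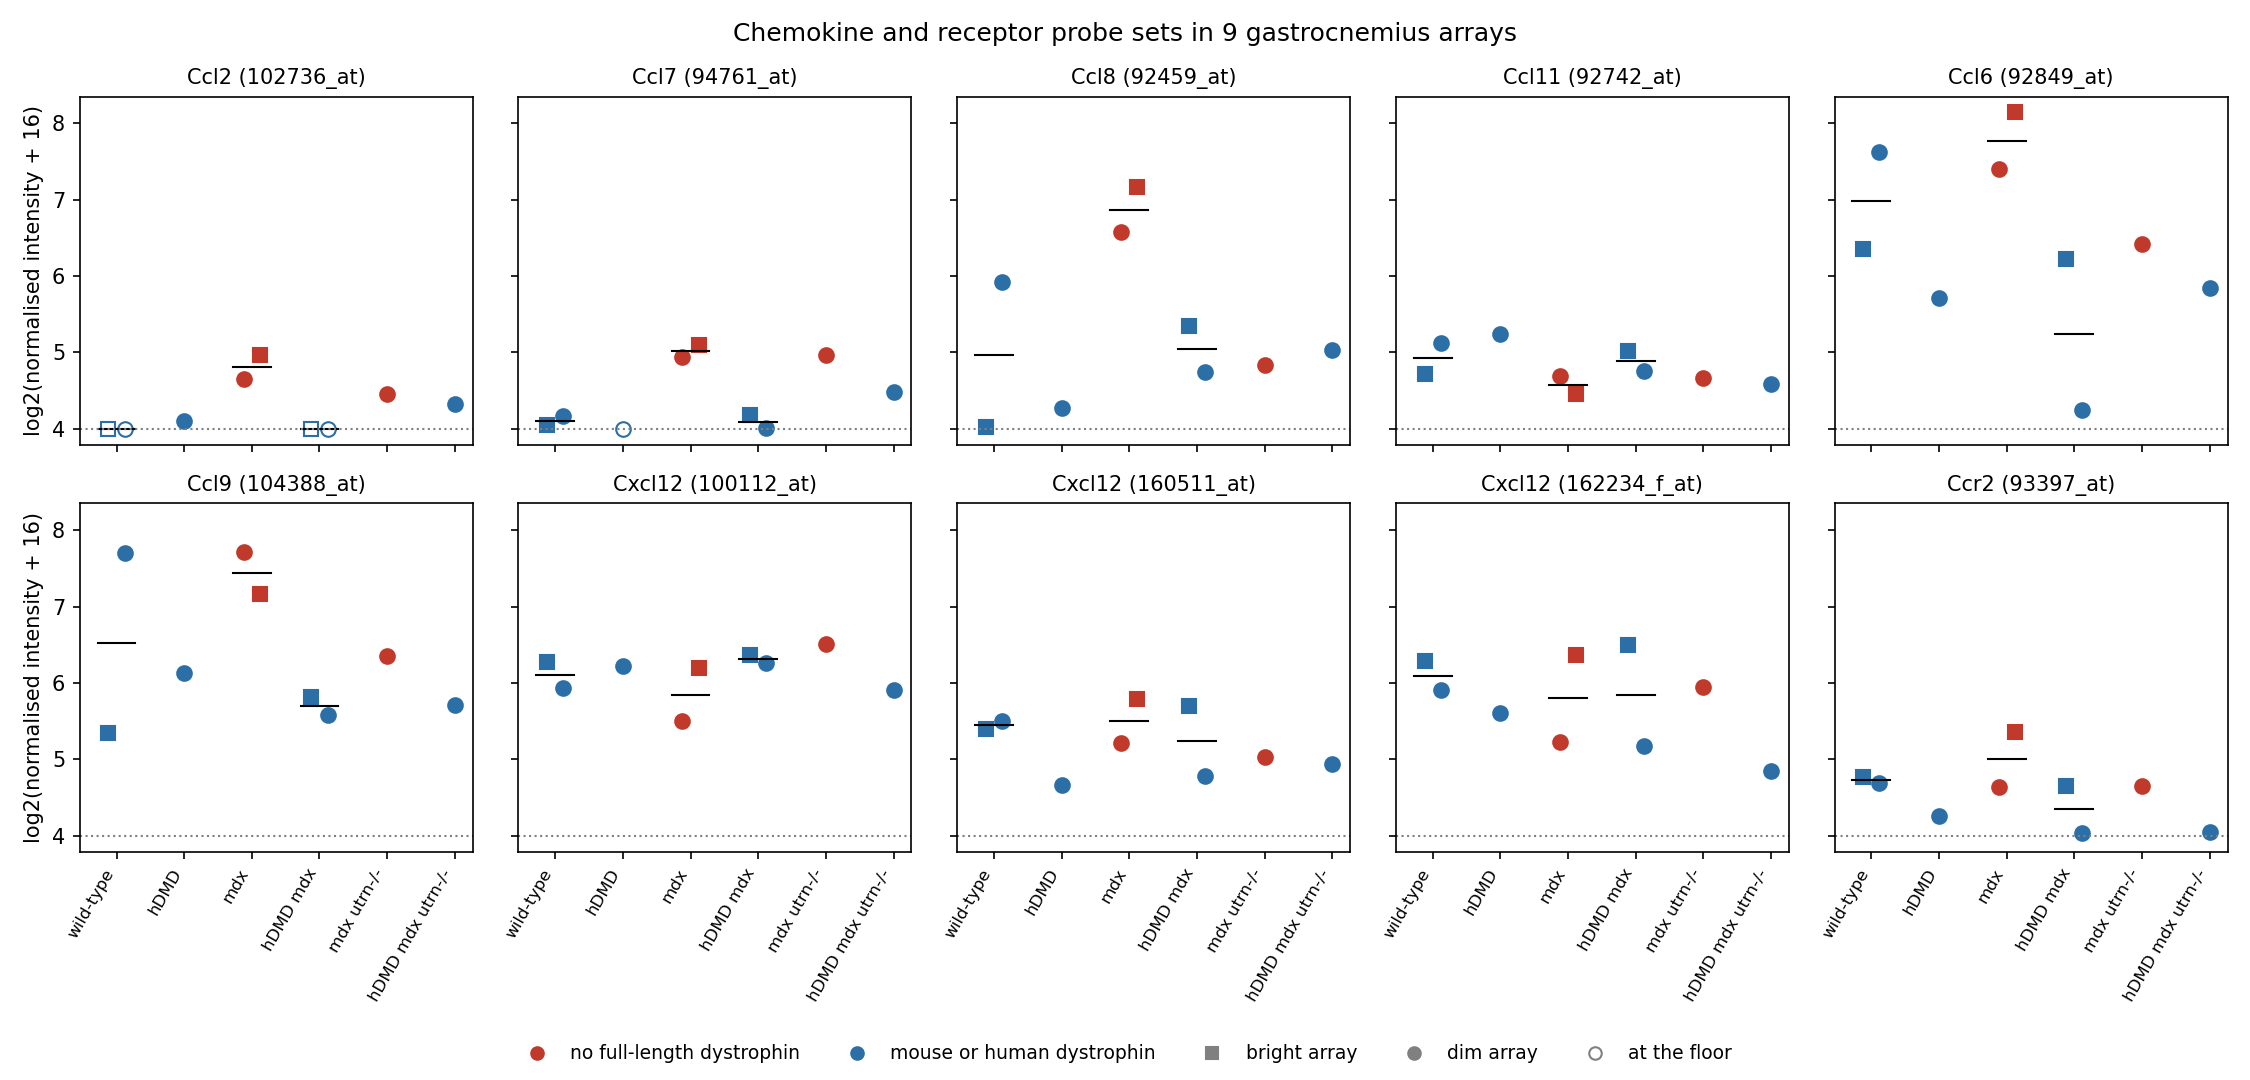
Level of each of the 10 probe sets by genotype, as log2 of the normalised intensity plus 16 (vertical axis, floor 4 as a dotted line). Each point is 1 mouse, short lines are means of the genotypes with 2 mice, squares are bright and circles dim arrays, and open points lie at the floor. The dystrophin-lacking mice (red) lie above all others for Ccl2 and Ccl7 only.

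Loss of dystrophin was addressed first by comparing the 3 dystrophin-lacking with the 6 dystrophin-carrying mice. Ccl8, Ccl6 and Ccl9 were on average 1.30, 1.32 and 1.03 higher without dystrophin, and none of the 3 passed the test. Of the 8 probe sets tested, 6 had a positive difference, 0 were called at an adjusted p under 0.05 (limma), and 2, those of Ccl8 and Ccl6, had an unadjusted p under 0.05. Over all probe sets tested, 0.121% were called, 9 of 7453, and 416 had an unadjusted p under 0.05. The median difference was 0.33 over the 8 and -0.01 over all 7453. On the array as a whole, 1.26% of the 12422 probe sets had every dystrophin-lacking mouse above every other mouse, and of the 10 described here this held for Ccl2 and Ccl7.

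The CCR2 ligands Ccl2 and Ccl7, neighbours on chromosome 11, were dim everywhere and highest in the dystrophin-lacking mice. Ccl2, which recruits monocytes through Ccr2, read 4.66 in mdx 1, 4.97 in mdx 2 and 4.46 in mdx utrn-/-. It read 4.32 in hDMD mdx utrn-/-, 4.11 in hDMD and 4 in the 4 mice at the floor. The lowest dystrophin-lacking mouse was thus 0.14 above the highest other mouse, the hDMD mdx utrn-/- mouse. The class means were 4.70 ± 0.26 (SD, n = 3) and 4.07 ± 0.13 (n = 6). As 4 of the 6 dystrophin-carrying mice lay at the floor, the size of the difference depends on the pseudocount, at 2.82 with a pseudocount of 1 and 0.19 with 64, and its standard error is not given.

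Ccl7, a second ligand of Ccr2, had levels of 4.94 in mdx 1, 5.10 in mdx 2 and 4.97 in mdx utrn-/-. The dystrophin-carrying mice read 4.05 and 4.17 in wild-type 1 and 2, 4 in hDMD, 4.18 and 4.01 in hDMD mdx 1 and 2, and 4.49 in hDMD mdx utrn-/-. Here too the groups did not overlap, and the dystrophin-lacking mice of both utrophin genotypes lay close together. The means were 5.00 ± 0.09 (SD, n = 3) and 4.15 ± 0.18 (n = 6), a difference of 0.85 ± 0.11 (SE), or 2.93 with a pseudocount of 1 and 0.28 with 64.

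Both genes fell below the filter and were tested over all 12422 probe sets, where neither passed, with an adjusted p of 0.139 for Ccl7 (limma). The exact two-sided permutation test over the 84 splits gave p = 0.0119 for Ccl2 and for Ccl7, the smallest value it allows, before any adjustment for the 10 probe sets. Without the hDMD mdx utrn-/- mouse the Ccl7 difference was 0.92 with an adjusted p of 0.0165 (limma), past the threshold. Over all alternatives the adjusted p of Ccl7 ranged from 0.0165 to 1. For Ccl7 the dystrophin-lacking mice were higher by 0.99 among bright and by 0.78 among dim arrays. For Ccl2 the bright dystrophin-carrying arrays all lay at the floor. In both genes the order of genotype means began with mdx, at 4.81 ± 0.22 for Ccl2 and 5.02 ± 0.11 for Ccl7 (SD, n = 2), followed by mdx utrn-/- and then hDMD mdx utrn-/-. Across the 9 mice, the log2 levels of Ccl2 and Ccl7 had a Pearson correlation of 0.936, as a description.

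Ccl8, a relative of Ccl2, was highest in both mdx mice. Its levels were 6.58 in mdx 1, 7.16 in mdx 2 and 4.83 in mdx utrn-/-. Among dystrophin-carrying mice it read 4.02 and 5.92 in wild-type 1 and 2, 4.28 in hDMD, 5.35 and 4.75 in hDMD mdx 1 and 2, and 5.03 in the hDMD mdx utrn-/- mouse. The mdx utrn-/- mouse thus lay among the dystrophin-carrying mice, and the wild-type mice were 1.90 apart. The class difference was 1.30 ± 0.51 (SE), adjusted p = 0.832 (limma), and the exact permutation p was 0.0833. It was 2.48 among bright and 0.71 among dim arrays, 1.98 without the mdx utrn-/- mouse and 0.82 without mdx 2. Without wild-type 2 it was 1.51 ± 0.50 (SE), adjusted p = 0.476 (limma). In order of genotype mean, mdx came first at 6.87 ± 0.41 (SD, n = 2), then hDMD mdx at 5.05 ± 0.43, hDMD mdx utrn-/- at 5.03, wild-type at 4.97 ± 1.35, mdx utrn-/- at 4.83 and hDMD at 4.28. The mdx mean lay further from the next genotype than the SDs of both, and the other neighbours differed by less than the wild-type SD.

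Ccl11, or eotaxin, which attracts eosinophils, had a narrow range of 0.78 over all 9 mice. It read 4.70, 4.46 and 4.66 in mdx 1, mdx 2 and mdx utrn-/-. Dystrophin-carrying mice read 4.72 and 5.12 in wild-type, 5.24 in hDMD, 5.02 and 4.76 in hDMD mdx 1 and 2, and 4.59 in the hDMD mdx utrn-/- mouse. The dystrophin-lacking mice sat at the low end, with hDMD mdx utrn-/- between them, and the difference was -0.30 ± 0.22 (SE), adjusted p = 0.999 (limma). Its sign was opposite to that of Ccl2, Ccl7 and Ccl8 from the same row of genes.

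Ccl6 and Ccl9, closely related chemokines that act on myeloid cells, had their highest genotype means in mdx. Ccl6 read 7.41 in mdx 1, 8.14 in mdx 2 and 6.42 in mdx utrn-/-. The other mice read 6.35 and 7.62 in wild-type 1 and 2, 5.71 in hDMD, 6.22 and 4.25 in hDMD mdx 1 and 2, and 5.85 in hDMD mdx utrn-/-. Wild-type 2 was the only dystrophin-carrying mouse to reach the range of the dystrophin-lacking mice, and hDMD mdx 2 was far below all others. The class difference was 1.32 ± 0.60 (SE), adjusted p = 0.882 (limma), exact permutation p = 0.143.

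Ccl9 read 7.71 in mdx 1, 7.16 in mdx 2 and 6.36 in mdx utrn-/-. It read 5.34 and 7.71 in wild-type 1 and 2, 6.13 in hDMD, 5.81 and 5.59 in hDMD mdx 1 and 2, and 5.71 in hDMD mdx utrn-/-. Again wild-type 2 alone reached the dystrophin-lacking range, 2.37 above the other wild-type mouse. The class difference was 1.03 ± 0.48 (SE), adjusted p = 0.905 (limma), exact permutation p = 0.107.

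Without wild-type 2, the dystrophin-lacking mice lay above all others for 4 of the 10 probe sets, those of Ccl2, Ccl7, Ccl6 and Ccl9, against 2.4% of all probe sets. For Ccl6 and Ccl9 this follows from leaving out the only mouse that overlapped. That mouse was singled out on these same data, so the count is a description and no test. The differences without wild-type 2 were 1.65 ± 0.51 for Ccl6 and 1.36 ± 0.32 for Ccl9 (SE), with adjusted p of 0.414 and 0.183 (limma). No dystrophin-lacking mouse carries the human gene, so adding its presence to the fit sets these mice against both wild-type mice only. The class difference was then 0.34 for Ccl6, 0.55 for Ccl9, 0.15 for Ccr2, 1.22 for Ccl8 and 0.89 for Ccl7. These values do not measure the part of the human gene. By genotype mean, mdx led both orders, at 7.77 ± 0.52 for Ccl6 and 7.44 ± 0.39 for Ccl9 (SD, n = 2). Wild-type followed at 6.99 ± 0.90 and 6.52 ± 1.67, within its spread of both neighbours. The hDMD mdx mice came last, at 5.24 ± 1.40 for Ccl6 and 5.70 ± 0.16 for Ccl9, within their spread of the next genotypes up. Across the 9 mice, Ccl6 and Ccl9 had a Pearson correlation of 0.784.

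Cxcl12, a chemokine made by stromal and vessel cells that acts through Cxcr4, had no difference in a shared direction. On the first probe set, that with the highest mean, it read 5.50, 6.19 and 6.52 in mdx 1, mdx 2 and mdx utrn-/-. The dystrophin-carrying mice were within those values, from 5.91 in hDMD mdx utrn-/- through a median of 6.25 to 6.37 in hDMD mdx 1. The second probe set ranged from 5.04 to 5.79 in dystrophin-lacking and from 4.66 to 5.69 in dystrophin-carrying mice, and the third from 5.23 to 6.37 and from 4.85 to 6.49. Class differences were -0.10 ± 0.25, 0.18 ± 0.29 and 0.13 ± 0.38 (SE), each with adjusted p = 0.999 (limma), and leaving out single mice turned the sign of all 3. The 3 probe sets were themselves unequal in pattern, with pairwise Pearson correlations of 0.007, 0.548 and 0.752 over the 9 mice. On the third, the bright arrays, at 6.29 to 6.49, all lay above the dim arrays, at 4.85 to 5.95. On the second, bright arrays read 5.40 to 5.79 and dim arrays 4.66 to 5.51. The part of array brightness in these correlations was not tested.

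Ccr2, the receptor, was dim. It read 4.64, 5.36 and 4.65 in mdx 1, mdx 2 and mdx utrn-/-. Both wild-type mice, at 4.77 and 4.70, lay within this range, and so did hDMD mdx 1 at 4.65. The hDMD mouse at 4.26, hDMD mdx 2 at 4.04 and hDMD mdx utrn-/- at 4.05 were lower than every dystrophin-lacking mouse. The last 2 had deposited values below 0. By genotype, mdx came first at 5.00 ± 0.51 (SD, n = 2) and wild-type second at 4.73 ± 0.05, within the mdx spread. The class difference was 0.47 ± 0.27 (SE), adjusted p = 0.993 (limma), exact permutation p = 0.167. Without mdx 2 it was 0.23. The size of all these class differences moved with the processing: with pseudocounts of 64 and 1 they were 0.69 and 2.31 for Ccl8, 0.84 and 1.81 for Ccl6, 0.65 and 1.27 for Ccl9, and 0.17 and 1.52 for Ccr2. On deposited values without normalisation they were 1.03, 0.85, 0.74 and 0.24.

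**Figure D2:**
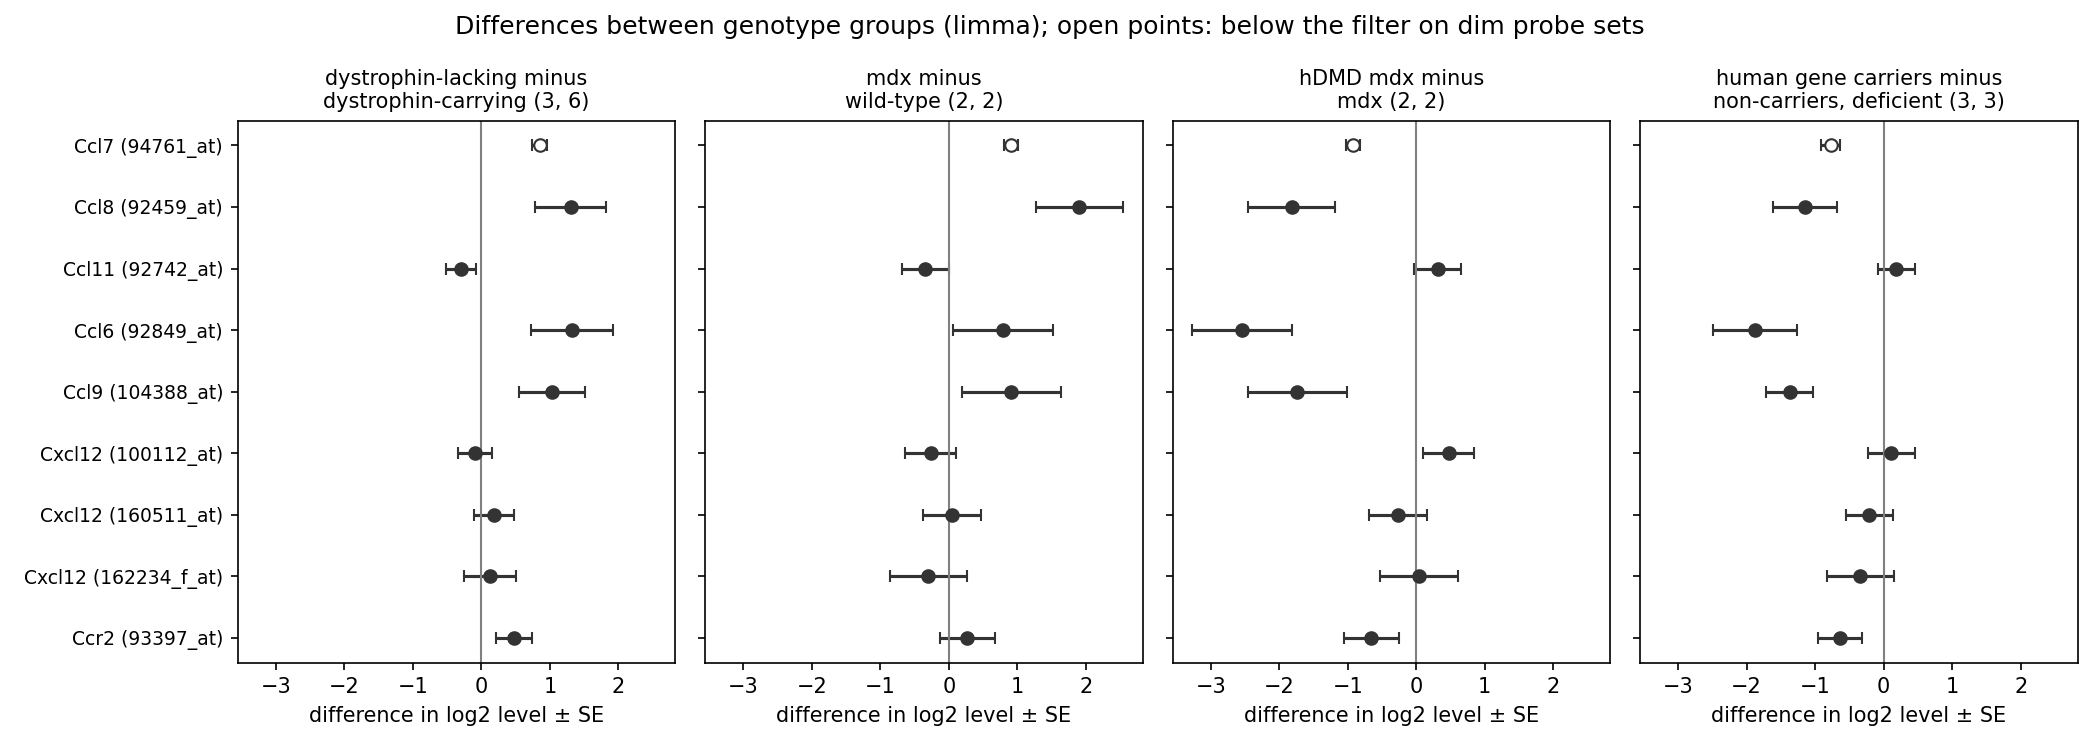
Difference in log2 level with its standard error for each probe set in the 4 comparisons, with the number of mice per group in parentheses. Open points are probe sets below the filter, fitted over all 12422 probe sets, and Ccl2 is not drawn because of its values at the floor. Ccl7, Ccl8, Ccl6 and Ccl9 lie to the right of 0 without dystrophin and to the left of 0 with the human gene, and no point passed the adjusted threshold.

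Mice of the mdx genotype were then set against wild-type mice (n = 2 each). Ccl8 had the largest difference of the 8 tested, 1.90 ± 0.64 (SE), from 4.97 in wild-type to 6.87 in mdx. It did not pass the adjustment over all probe sets (adjusted p = 1, limma), and 0 of the 8 did. Of the 8, 1 had an unadjusted p under 0.05, as did 130 of all 7453, of which 0% were called. Ccl7 was 0.91 ± 0.10 higher in mdx, adjusted p = 0.921 over 12422 probe sets (limma). Ccl2 lay at the floor in both wild-type mice and at 4.66 and 4.97 in the mdx mice. Both mdx mice were above both wild-type mice for these 3 of 10 probe sets, which also held for 10.6% of all probe sets.

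The 2 wild-type mice, which differ in both sex and array brightness, gave different values in this comparison. Between the bright arrays, mdx 2 was above wild-type 1 by 3.15 for Ccl8, 1.79 for Ccl6 and 1.82 for Ccl9. Between the dim arrays, mdx 1 was above wild-type 2 by 0.66 for Ccl8, and the differences were -0.21 for Ccl6 and 0.00 for Ccl9. For Ccl7 both pairs gave the same sign, at 1.05 and 0.76. Without wild-type 2 the differences were 2.85 for Ccl8, 1.42 for Ccl6 and 2.09 for Ccl9. Without wild-type 1 they were 0.95, 0.15 and -0.27, so the sign for Ccl9 rested on which wild-type mouse was used. Differences were 0.79 ± 0.73 for Ccl6, 0.27 ± 0.40 for Ccr2 and -0.34 ± 0.34 for Ccl11 (SE), each with adjusted p = 1 (limma). Those of Cxcl12 were -0.26, 0.05 and -0.30 on its 3 probe sets, with the same adjusted p.

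The effect of the human gene on the mdx background was read from hDMD mdx against mdx mice (n = 2 each), which share the mdx mice with the comparison just given. Levels of Ccl6, Ccl8 and Ccl9 were lower with the human gene, with differences of -2.54 ± 0.73, -1.82 ± 0.64 and -1.74 ± 0.72 (SE). All 3 had an unadjusted p under 0.05 and an adjusted p of 1 (limma). On deposited values without normalisation they were -1.24, -0.92 and -0.89, and without hDMD mdx 2 that of Ccl6 was -1.55. Among all 7453 probe sets, 215 had an unadjusted p under 0.05 and 0% were called. Ccl7 differed by -0.92 ± 0.10, adjusted p = 0.636 over 12422 probe sets (limma), and Ccl2 lay at the floor in both hDMD mdx mice. For these 5 of 10 probe sets both mdx mice were above both hDMD mdx mice, against 11.4% of all probe sets.

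These differences had the same sign in the bright pair and in the dim pair. From bright to dim they were -1.81 and -1.83 for Ccl8, -1.92 and -3.16 for Ccl6, -1.35 and -2.12 for Ccl9, and -0.92 and -0.93 for Ccl7. Ccr2 differed by -0.71 and -0.60 in the same pairs, and its fitted difference was -0.66 ± 0.40 (SE), adjusted p = 1 (limma), with -1.01 to -0.30 when single mice were left out. Its hDMD mdx 1 and mdx 1 values nearly met, at 4.65 and 4.64, so its groups overlapped. The dim pair rests on a Ccr2 value in hDMD mdx 2 that was deposited below 0. Ccl11 stood at 4.89 with the human gene and 4.58 without it. The Cxcl12 probe sets gave 0.47, -0.27 and 0.04.

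**Figure D3:**
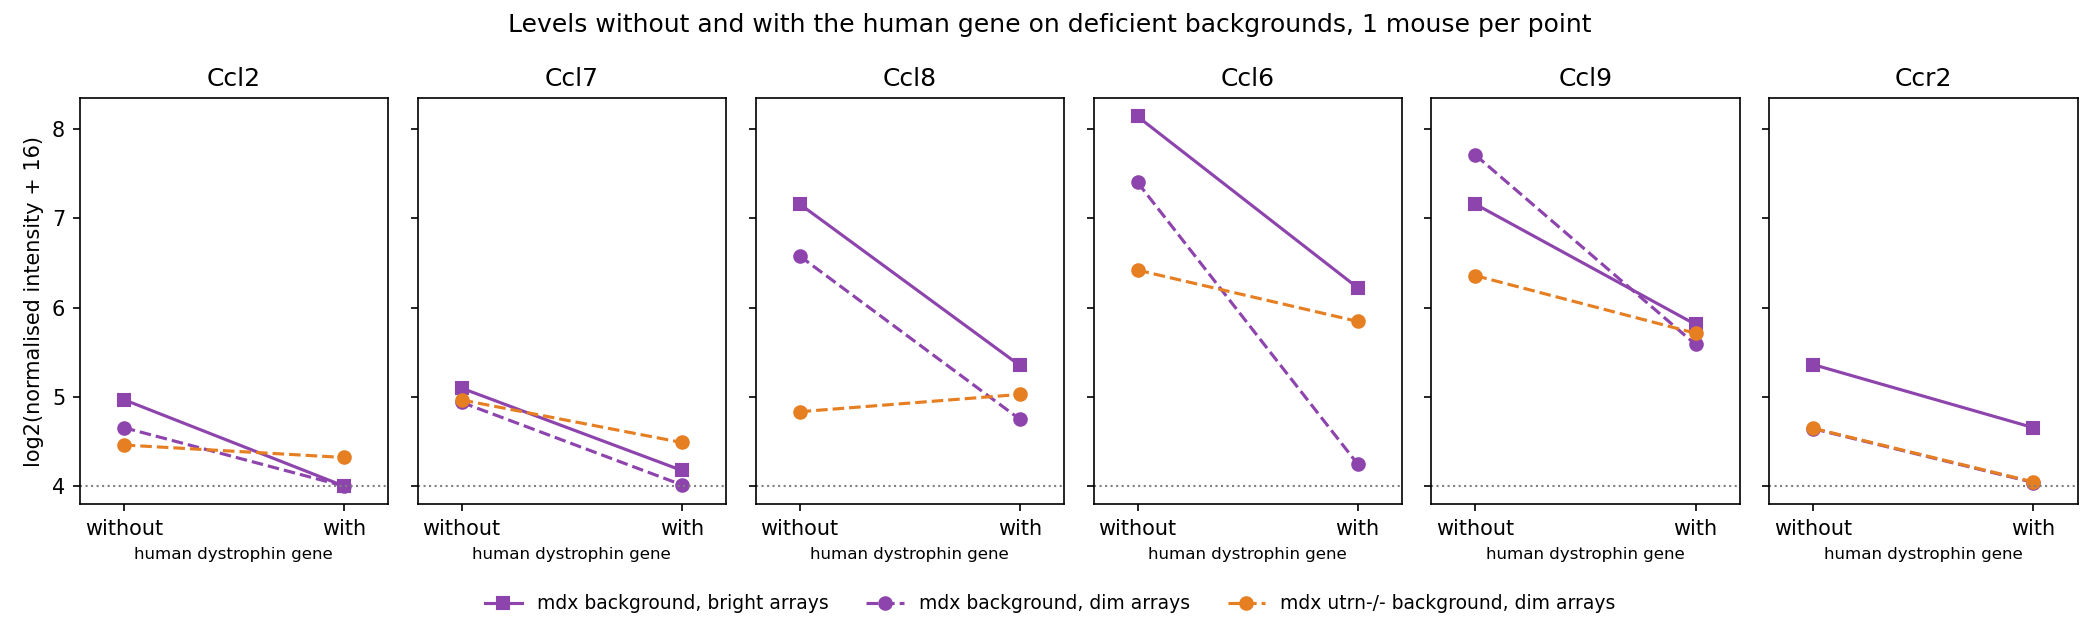
Level of 6 genes without and with the human dystrophin gene, as log2 of the normalised intensity plus 16, with the floor at 4 dotted. Each point is 1 mouse, and lines join different mice whose background and array brightness match. Every line goes down except that of Ccl8 on the mdx utrn-/- background, which goes from 4.83 to 5.03.

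Both deficient backgrounds together compared 3 carriers of the human gene with 3 non-carriers, with utrophin genotype as a term in the fit, and these mice also stand in the comparisons above. Ccl9 read 5.81, 5.59 and 5.71 in the carriers and 7.71, 7.16 and 6.36 in the non-carriers, with no overlap. Its difference of -1.37 ± 0.34 (SE) had the lowest adjusted p of the 8, at 0.456 (limma). Ccl6 differed by -1.88 ± 0.61, adjusted p = 0.711, and Ccl8 by -1.15 ± 0.47, adjusted p = 0.869 (limma). These 3 had an unadjusted p under 0.05, as did 409 of all 7453 probe sets, and 0 of the 8 and 0% of all were called. The median difference was -0.49 over the 8 and 0.02 over all. On deposited values the differences of Ccl9, Ccl6 and Ccl8 were -0.80, -1.02 and -0.64. Without hDMD mdx 2 that of Ccl6 was -1.13, and that of Ccl8 went from -1.82 without either utrophin-deficient mouse to -0.79 without hDMD mdx 2 or mdx 2. Ccl7 differed by -0.78 ± 0.13, adjusted p = 0.537 over 12422 probe sets (limma). Ccl2 lay at the floor in 2 of the 3 carriers, and its difference went from -2.62 with a pseudocount of 1 to -0.18 with 64. For Ccl2, Ccl7, Ccl6 and Ccl9 the 3 carriers all lay below the 3 non-carriers, which held for 4.03% of all probe sets, and the exact permutation p was 0.1, the smallest that 3 against 3 allow.

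Between the single utrophin-deficient mice, without a test, the carrier minus the non-carrier was -0.14 for Ccl2, -0.48 for Ccl7, 0.19 for Ccl8, -0.57 for Ccl6, -0.65 for Ccl9 and -0.60 for Ccr2. The Ccr2 value of the carrier was deposited below 0. The 3 Cxcl12 values were -0.61, -0.10 and -1.09. The difference of Ccl8 with the human gene was thus -1.82 on the mdx and 0.19 on the mdx utrn-/- background. That contrast of backgrounds has no replicate in its utrophin-deficient arms. Fitted on the assumption that these mice vary like the mdx and hDMD mdx pairs, it was 2.01 ± 0.70 (SE), adjusted p = 1 (limma). Among dim arrays, mdx utrn-/- minus mdx 1 was -1.75 for Ccl8, -0.98 for Ccl6, -1.35 for Ccl9 and 0.03 for Ccl7. The mdx utrn-/- mouse was the youngest, at 5 weeks.

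Markers of monocytes and macrophages were on average higher in the dystrophin-lacking mice. Of 26 listed genes, 22 had a probe set and 18 passed the filter. All 18 had a positive class difference, with a median of 1.08 against -0.01 for all probe sets; 0 were called and 12 had an unadjusted p under 0.05 (limma). Their summed normalised intensity was 2700 in mdx 1, 1850 in mdx 2 and 1380 in mdx utrn-/-. Among dystrophin-carrying mice it was 426 to 608 in all but wild-type 2, at 1970. Wild-type 2, high for Ccl8, Ccl6 and Ccl9, thus lay between the mdx mice for these markers, and it also had the highest sums of fibroblast genes, 3580, and adipocyte genes, 2080. None of the 22 markers was at the floor in every array.

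The Pearson correlation with the log2 of the macrophage sum was taken over the same 9 mice, as a description. It was 0.934 for Ccl9, 0.823 for Ccl8, 0.744 for Ccl6, 0.712 for Ccl7, 0.631 for Ccl2, 0.557 for Ccr2 and -0.23 for Ccl11. For the Cxcl12 probe sets, in the order used before, it was -0.463, 0.394 and 0.071. The same 18 marker genes all had a negative difference in hDMD mdx against mdx, with a median of -1.30, and 16 of them had one with the human gene on both backgrounds, with a median of -1.21. Their part in the chemokine results was not tested. In whole muscle, more cells of a type and more RNA per cell cannot be told apart.

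**Figure D4:**
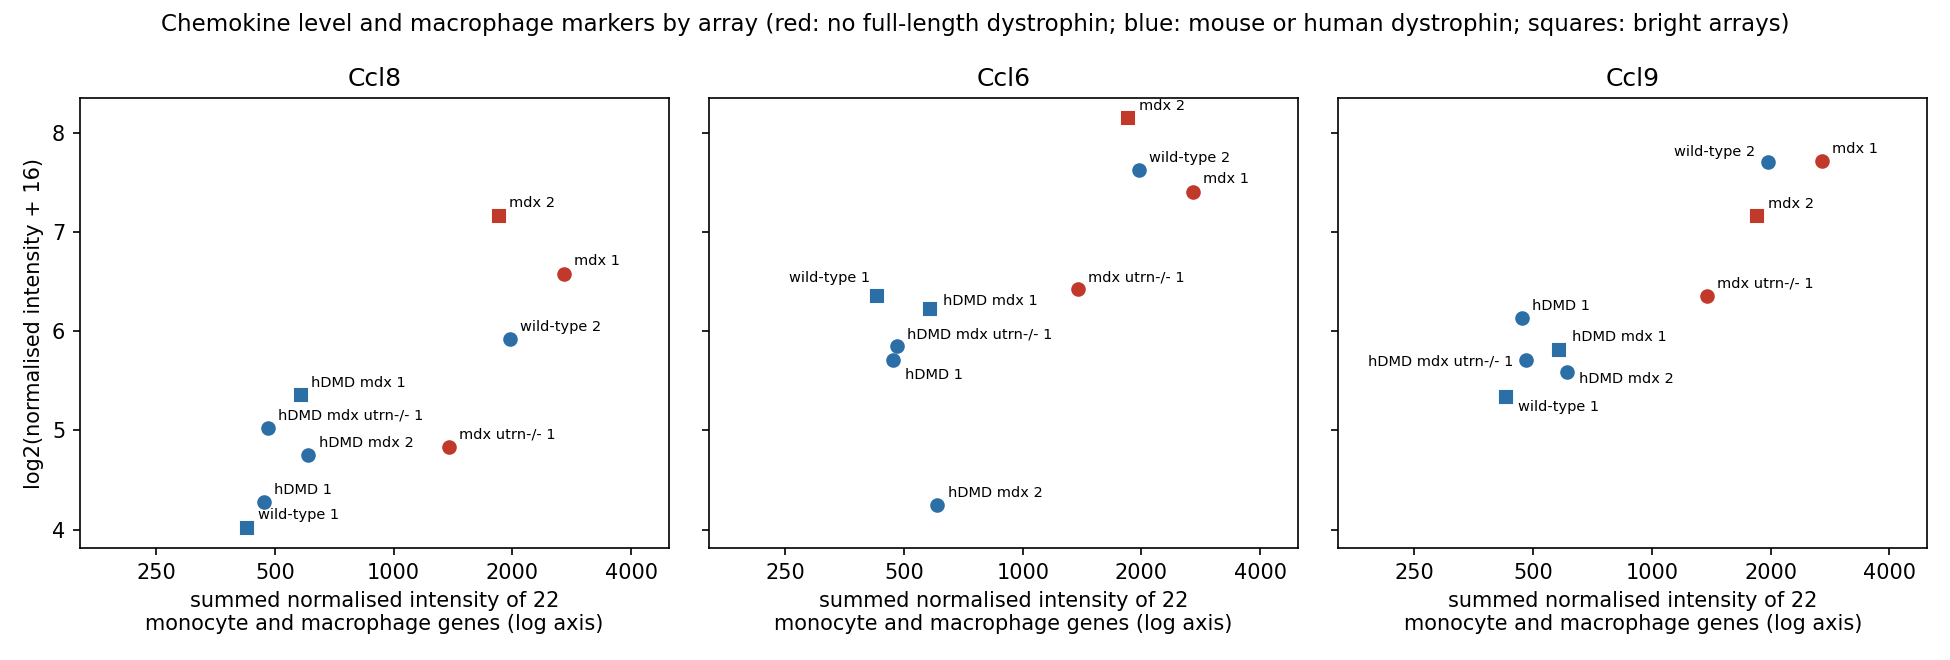
Level of Ccl8, Ccl6 and Ccl9 (vertical axis, log2 of normalised intensity plus 16) against the summed normalised intensity of 22 monocyte and macrophage genes (log axis), with 1 point per mouse. Wild-type 2 lies with the mdx mice to the right, at a sum of 1970, and the other 5 dystrophin-carrying mice lie between 426 and 608.

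Fibroblast genes summed to between 2360 and 2620 in dystrophin-lacking mice, and to between 1590 and 2290 in the other mice but wild-type 2, at 3580. Of the 7 fibroblast genes, 6 had a positive class difference and 6 a negative difference with the human gene on both backgrounds, with medians of 0.34 and -0.79 and 0 called. In mdx against wild-type mice the list was split, with 3 positive and 4 negative differences and a median of -0.23. Col1a1, a fibrillar collagen, differed by -1.25 ± 0.32 (SE) with the human gene, adjusted p = 0.493 (limma). In mdx against wild-type mice it differed by -0.23 ± 0.34 (SE). The part of the fibroblast genes in the chemokine results was not tested. The 7 neutrophil genes summed to between 86.7 and 2500 in dystrophin-lacking mice, with the top value in mdx utrn-/-, and to between 71.8 and 251 in the others. The sums of T and B lymphocyte genes were 47.4 to 99.3 and 79.8 to 199, with Cd3e, part of the T cell receptor complex, at the floor in all 9 arrays. Eosinophil and mast cell genes, which would accompany cells that Ccl11 attracts, summed to 15.2 to 39.8 and 13.8 to 89.1. Endothelial genes gave 264 to 541 and 294 to 528. The part of these cell types in the chemokine results was not tested.

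The genes closest in pattern to each member, by Pearson correlation over the 9 mice among 6698 probe sets with a single gene, included 3 of the macrophage marker list, all for Ccl9. For Ccl9 they were C1qb (0.958), C1qc (0.951), both complement subunits, and Cd68 (0.939), a lysosomal protein of macrophages. For Ccl6 they were Grn (0.968), encoding progranulin, Cyba (0.965), a subunit of the phagocyte oxidase, and Samhd1 (0.958). For Ccl8 they were Rin2 (0.951), Tap1 (0.905), a peptide transporter of antigen presentation, and Ift27 (0.905). For Ccr2 they were Degs1 (0.973), Rcn1 (0.973) and Anxa1 (0.968), which encodes annexin. For Ccl11 they were Ddx24 (0.926), Smim1 (0.89) and Cops2 (0.874), and for the first Cxcl12 probe set Timm8a1 (0.913), Eed (0.901) and Crkl (0.896). All these values share the same 9 arrays, with their genotypes and brightness, and are the highest of a long search.

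The remaining chemokines and receptors were examined as a list of 54 genes, of which 37 had a probe set and 14 passed the filter. In all 4 comparisons 0 of the 14 were called by limma, and 0 had an unadjusted p under 0.05. Between the classes, 8 had a positive and 6 a negative difference, with a median of 0.01. The largest positive differences were those of Cx3cr1, the fractalkine receptor of monocytes, at 0.34 ± 0.33 and of Ackr1, a scavenging receptor of vessels and red cells, at 0.26 ± 0.46 (SE). The largest negative ones were Ccl12, which lies between Ccl11 and Ccl8 and is a ligand of Ccr2, at -0.60 ± 0.38 and Ccrl2 at -0.40 ± 0.26. Each had an adjusted p of 0.999 (limma). With the human gene on both backgrounds, all 14 had a positive difference, as had 51.6% of all probe sets. Their median was 0.18 against 0.02 for all, and some lay near 0, such as Ccl25 at 0.01. Of the 8 member probe sets, in which Cxcl12 stands 3 times, 6 had a negative difference. The list has 1 probe set per gene, and the members were chosen with earlier results of these data known. Ccl17 and Ccr8 were at the floor in all 9 arrays.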

How the data were processed

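The authors deposited linear intensities, 1 value per probe set and mouse, per the labels from total RNA extracted with Trizol and RNeasy and copied into biotin-labelled cRNA. How probes were summarised and arrays scaled is not given in the sources used here. All 12422 probe sets that are not controls were quantile normalised over 9 arrays, values below 0 were set to 0, 16 was added and log2 was taken. Probe sets with a mean above the 40th percentile were kept (7453). Gene names came from the platform annotation, updated through Entrez identifiers.

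Fits used limma 3.58.1 in R 4.3.3 with lmFit and eBayes, two-sided, with Benjamini-Hochberg adjustment over all probe sets fitted and a threshold of 0.05. The class comparison used 2 groups, the mdx comparisons 1 mean per genotype over all 9 arrays, and the comparison of human gene carriers 6 arrays with utrophin genotype. Ccl2 and Ccl7, below the filter, were fitted with all 12422 probe sets, and no fold is given where a whole group lay at the floor. Promoters were aligned with Biopython 1.88. The code of the fits was checked on simulated data with equal normal spread, large planted differences and no floor. That check does not measure the power for dim or variable genes. Arrays of different mice measure the spread between mice, and their number limits the precision.

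The members and the lists were chosen with earlier results of these data known. All member probe sets are named. Of the other chemokines, those that passed a test were to be named, and otherwise the 2 largest differences per direction. For likeness, the 3 genes with the highest correlation are given. Alternatives were no normalisation, linear scaling to a common trimmed mean (chosen after seeing the data), no filter, pseudocounts of 1 and 64, a trend in eBayes, brightness as a block, dim arrays only, age or human gene status in the fit, only the compared arrays, and each mouse left out.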

Additional observations from a re-analysis of the deposited data

Results flagged for a closer look

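Among the 6 dystrophin-carrying mice, each of the 10 probe sets was examined for a mouse far from the others, by its gap to the nearest mouse as a share of the group's range. A share above 0.625 was taken as far, which chance gives in about 1 in 20 groups of normally spread values, and these 6 mice span 4 genotypes. That rate does not hold for Ccl2, with 4 of the 6 mice at the floor. It is also in doubt for Ccl7, with 1 mouse at the floor and others near it. The hDMD mdx utrn-/- mouse stood apart for Ccl2, at 4.32 against 4.11 for the next mouse (share 0.665), and for Ccl7, at 4.49 against 4.18 (share 0.641). Both values lay toward those of the dystrophin-lacking mice, and still below all 3 of them. Wild-type 2 stood apart for Ccl9, at 7.71 against 6.13 for the next mouse, hDMD (share 0.666). The same mouse had the highest macrophage marker sum of the 6, at 1970.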

How the results depend on the processing

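The 9 probe sets called between dystrophin-lacking and dystrophin-carrying mice became 0 with deposited values without normalisation (12 with an unadjusted p under 0.05), 2 with no filter, 1 with a pseudocount of 1, 2 with the human gene in the fit, and 2 to 18 with single mice left out. Called probe sets for carriers of the human gene went from 0 to 1 with a trend in eBayes and to 4 with brightness as a block. None of these calls was a member. Of 570 values of the 40 member results under alternatives, 543 kept their direction and side of the threshold, 26 turned sign, and 1, that of Ccl7 without the hDMD mdx utrn-/- mouse, came to pass the threshold.

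With deposited values, the second Cxcl12 probe set turned to -0.024 between the classes, 0.41 in hDMD mdx against mdx and 0.22 for carriers, and the third to -0.14 between the classes and 0.26 for carriers. With the human gene in the fit, which leaves dystrophin-lacking against wild-type mice, they turned to -0.11 and -0.25 between the classes. With single mice left out, the class differences of the 3 Cxcl12 probe sets, in the order used before, ranged from -0.32 to 0.19, -0.039 to 0.34 and -0.14 to 0.44. In mdx against wild-type these ranges were -0.61 to 0.08, -0.24 to 0.34 and -0.87 to 0.27, with -0.27 to 2.09 for Ccl9 and -0.092 to 0.63 for Ccr2. In hDMD mdx against mdx they were -0.72 to 0.19 for the second and -0.62 to 0.69 for the third, and for carriers -0.19 to 0.47, -0.46 to 0.067 and -0.82 to 0.036 on all 3. The cause of these turns was not tested. The labels give no replicate numbers that pair mice. Brightness as a block, which sets bright against bright and dim against dim arrays, changed no call of a member. Levels near the floor of 4, in Ccl2, Ccl7 and Ccr2, limit how large a difference these arrays can show.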
